A study of Mus musculus with 2 samples.

Results

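The choroid plexus secretory and transport genes described here are 8 genes, *Ttr*, *Folr1*, *Kl*, *Clic6*, *Slc4a5*, *Enpp2*, *Aqp1* and *Sostdc1*, of the 25556 genes in the brainstem count table. They were chosen by name, and each of the 8 was found in the table. Single-nucleus RNA sequencing was done on the brainstem of 1 wild-type mouse (WT) and of 1 age-matched heterozygous mouse (HET, *Scn1a* A1783V/WT). Both were female, at postnatal day 41 and on a C57BL/6J background. The HET mouse carries a knock-in missense allele of the sodium channel gene *Scn1a*, released from a floxed stop by a *Sox2-Cre* transgene that acts in the whole embryo, and is a model of Dravet syndrome. The WT mouse came from the same breeding, and neither mouse was treated. The study asked with these nuclei how the brainstem transcriptome of HET mice differs from that of WT mice.

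The choroid plexus is a sheet of epithelial cells on the wall of the brain ventricles that makes cerebrospinal fluid and passes hormones, vitamins and ions into it. Its cells hold very large amounts of the messenger RNA of a few secreted proteins, above all transthyretin. When tissue is broken up to free nuclei, RNA from the cytoplasm is released into the suspension, and some of it enters every droplet with a nucleus of another type. Such free RNA gives every cell type a like low level of the same genes, so a level at or below it was read as background and not as expression.

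Among the members, *Ttr* encodes transthyretin, which carries thyroid hormone, and *Enpp2* encodes autotaxin, a secreted enzyme that makes lysophosphatidic acid. *Sostdc1* encodes a secreted inhibitor of BMP and Wnt signals. *Kl* encodes klotho, a membrane protein that is also shed, and *Folr1* encodes the folate receptor that moves folate across the epithelium. *Slc4a5* encodes a sodium bicarbonate cotransporter, *Aqp1* a water channel, and *Clic6* a protein of the chloride intracellular channel family.

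All 8 are protein-coding genes in the GENCODE annotation of GRCm38, the build behind the count table. *Folr1* (chr7:101858331-101870788) and *Enpp2* (chr15:54838901-54952892) lie on the minus strand. *Kl* (chr5:150952607-150993817), *Clic6* (chr16:92485736-92541243), *Slc4a5* (chr6:83219828-83304945), *Aqp1* (chr6:55336432-55348555) and *Sostdc1* (chr12:36314139-36318452) lie on the plus strand, as does *Ttr*.

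Upstream sequence is shown for 3 of the 8 members, *Kl*, *Slc4a5* and *Aqp1*, from a set of RefSeq windows (GRCm38.p6). No window was used for *Ttr*, and the set held none for *Folr1*, *Clic6*, *Enpp2* or *Sostdc1*. Of these, *Kl* and *Slc4a5* were higher in a further cluster outside epend.2, while *Aqp1* was the member with the fewest counts. Each stretch holds the 250 bases before the annotated start, 5′ to 3′, with matches to the motifs searched in capitals.
Kl, chr5:150952357-150952606, plus strand: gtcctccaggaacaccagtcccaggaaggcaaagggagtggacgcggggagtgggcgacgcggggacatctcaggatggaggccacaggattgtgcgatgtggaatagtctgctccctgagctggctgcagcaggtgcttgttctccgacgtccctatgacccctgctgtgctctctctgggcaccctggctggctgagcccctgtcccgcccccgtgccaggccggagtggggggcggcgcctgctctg
Slc4a5, chr6:83237125-83237374, plus strand: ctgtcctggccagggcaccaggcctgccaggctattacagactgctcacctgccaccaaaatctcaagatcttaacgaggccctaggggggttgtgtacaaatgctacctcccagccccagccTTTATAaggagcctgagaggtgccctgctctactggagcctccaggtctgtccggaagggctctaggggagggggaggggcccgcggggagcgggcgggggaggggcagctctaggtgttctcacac
Aqp1, chr6:55336049-55336298, plus strand: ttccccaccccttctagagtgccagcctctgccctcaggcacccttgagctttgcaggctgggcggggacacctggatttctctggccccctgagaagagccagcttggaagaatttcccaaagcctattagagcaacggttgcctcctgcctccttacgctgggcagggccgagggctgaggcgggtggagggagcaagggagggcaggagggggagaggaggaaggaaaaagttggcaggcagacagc
The motifs were TAATCC, the bicoid-class core bound by *Otx2*, GTAAACA, a forkhead core, TATAAA and CCAAT, each read on both strands. The *Slc4a5* stretch held TATAAA on the minus strand, 127 to 122 bases before the start, and neither *Kl* nor *Aqp1* held any of the 4. Of all 32851 RefSeq windows, cut to the same 250 bases, 6.25% held TAATCC, 3.17% GTAAACA, 12.4% TATAAA and 33.8% CCAAT. The *Slc4a5* start used by RefSeq lies inside the annotated gene, downstream of the GENCODE start. The G and C content was 66.8% for *Kl*, 62.8% for *Slc4a5* and 62.0% for *Aqp1*.

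The WT library held 9259 nuclei and 70301390 UMIs (unique molecular identifiers, each standing for 1 captured RNA molecule), and the HET library held 9022 nuclei and 66176778 UMIs. The median nucleus had 5456 UMIs in WT and 5646 in HET. The authors had placed the nuclei in 16 clusters, of which 15 other than epend.2 held at least 30 nuclei in WT and 12 did in HET. The libraries shared 23 cell barcodes. With 1 library per genotype there is no replicate and no test between genotypes. Intervals are exact 95% intervals that cover counting error only.

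The cluster epend.2 held the choroid plexus nuclei, and they came almost entirely from the WT library. It had 108 nuclei in WT, 1.17% of the library (95% Clopper-Pearson interval 0.958 to 1.41%), and 6 in HET, 0.0665% (0.0244 to 0.145%). The authors' reference label was epithelial cells for 99 of the 108 WT nuclei and for all 6 HET nuclei. Of the other WT nuclei 5 were labelled neurons and 4 astrocytes. A list of 66 other choroid plexus genes summed to 53560 CPM (UMIs per 1000000 UMIs) in WT epend.2 and 4662 CPM in the other WT nuclei. In HET the sums were 57727 and 4327 CPM. The list was not particular to epend.2, as it summed to 29736 CPM in WT fibro and 19193 CPM in HET fibro, and to 12523 and 12426 CPM in astro. The 12 ependymal genes summed to 749 CPM in WT epend.2, above the 139 CPM of the other nuclei together but below the 9324 CPM of epend.1, the ependymal cluster. The 6 neuronal genes were at 1988 CPM in WT epend.2 and 12064 CPM elsewhere, and the 5 astrocyte genes at 161 and 326 CPM. The sums of other lists were higher in WT epend.2 than elsewhere. The 6 microglial genes were at 363 and 151 CPM and the 5 endothelial genes at 217 and 132 CPM. The 3 genes of oligodendrocyte precursors were at 47.9 and 28.2 CPM. Each sum came mostly from 1 gene: *Cx3cr1* with 104 of 144 UMIs, *Mecom* with 77 of 86 and *Pdgfra* with 12 of 19. *C1qa* and *Mrc1* were also higher in WT epend.2, while every other gene of these lists was lower there. Of the microglial genes 5 had a UMI in WT epend.2, as did 4 of the 5 endothelial and 5 of the 7 fibroblast and mural genes. The sum of the fibroblast and mural genes was lower in WT epend.2 than elsewhere, at 32.8 and 46.9 CPM. So was that of the 6 oligodendrocyte genes, at 1327 and 1866 CPM. The part of these other cell types in the levels of epend.2 was not tested. In HET epend.2 all 5 endothelial genes and the 3 genes of oligodendrocyte precursors were at 0. With 1 library per genotype, genotype, dissection and the recovery of nuclei cannot be told apart in this difference between the libraries in epend.2 nuclei.

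*Ttr* was found in every nucleus of epend.2. The 108 WT nuclei held from 8 to 363 *Ttr* UMIs with a median of 45.5, and the 6 HET nuclei held 48, 16, 62, 45, 27 and 29. *Ttr* made up a median of 1.35% of a WT nucleus's UMIs, with a range from 0.176 to 8.03%. The HET nuclei lay inside the WT range. Summed, the level was 16770 CPM (16369 to 17178) in WT and 9407 CPM (8223 to 10714) in HET.

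*Enpp2* was the other member with many UMIs in each nucleus. It was found in 107 of the 108 WT nuclei, with a median of 25 UMIs and a highest value of 77, and in all 6 HET nuclei with 19 to 45. The level was 8105 CPM (7827 to 8390) in WT and 8247 CPM (7141 to 9475) in HET, so the intervals overlapped.

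*Slc4a5*, *Clic6*, *Kl* and *Folr1* were sparser, with a median of 1 or 2 UMIs in a WT nucleus. *Slc4a5* had a UMI in 79.6% of WT epend.2 nuclei (86 of 108) and in all 6 HET nuclei, at 507 and 497 CPM. *Clic6* had a UMI in 75.9% of WT nuclei and in 5 of 6 HET nuclei, at 527 and 746 CPM. *Kl* and *Folr1* were each found in 79 of the 108 WT nuclei and in 4 of the 6 HET nuclei. Their WT levels were 464 and 358 CPM. The HET level was 497 CPM for *Kl* and 290 CPM for *Folr1*.

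*Sostdc1* and *Aqp1* were caught least often, with a median of 0 UMIs in a WT nucleus. *Sostdc1* had 67 UMIs in 39 WT nuclei (36.1%) and 6 UMIs in 4 HET nuclei. *Aqp1* had 13 UMIs in 12 WT nuclei (11.1%, 5.87 to 18.6%) and 2 UMIs in 2 HET nuclei. UMI counts were not adjusted for gene length, so levels are compared between cells and not between genes.

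All 8 members were at least 10 times higher in WT epend.2 than in the other WT nuclei combined, in CPM. Of 20374 genes with at least 20 WT UMIs, 3.44% met the same rule. Because the clusters had been made from these counts, this is a description and not a test. The ratio was 407 for *Slc4a5* (315 to 530), 309 for *Folr1* (234 to 411), 192 for *Kl*, 148 for *Sostdc1*, 127 for *Aqp1* (57.4 to 275) and 102 for *Clic6*. It was 55.9 for *Ttr* and 44.4 for *Enpp2*, the members with the most UMIs outside the cluster. When each nucleus was thinned to 1000 UMIs, the share of nuclei with *Slc4a5* was 38.9% in WT epend.2 and 0.206% elsewhere, while *Ttr* stood at 99.8% and 34.6% and *Enpp2* at 98.9% and 21.0%. Thinning left out no nucleus.

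**Figure D1:**
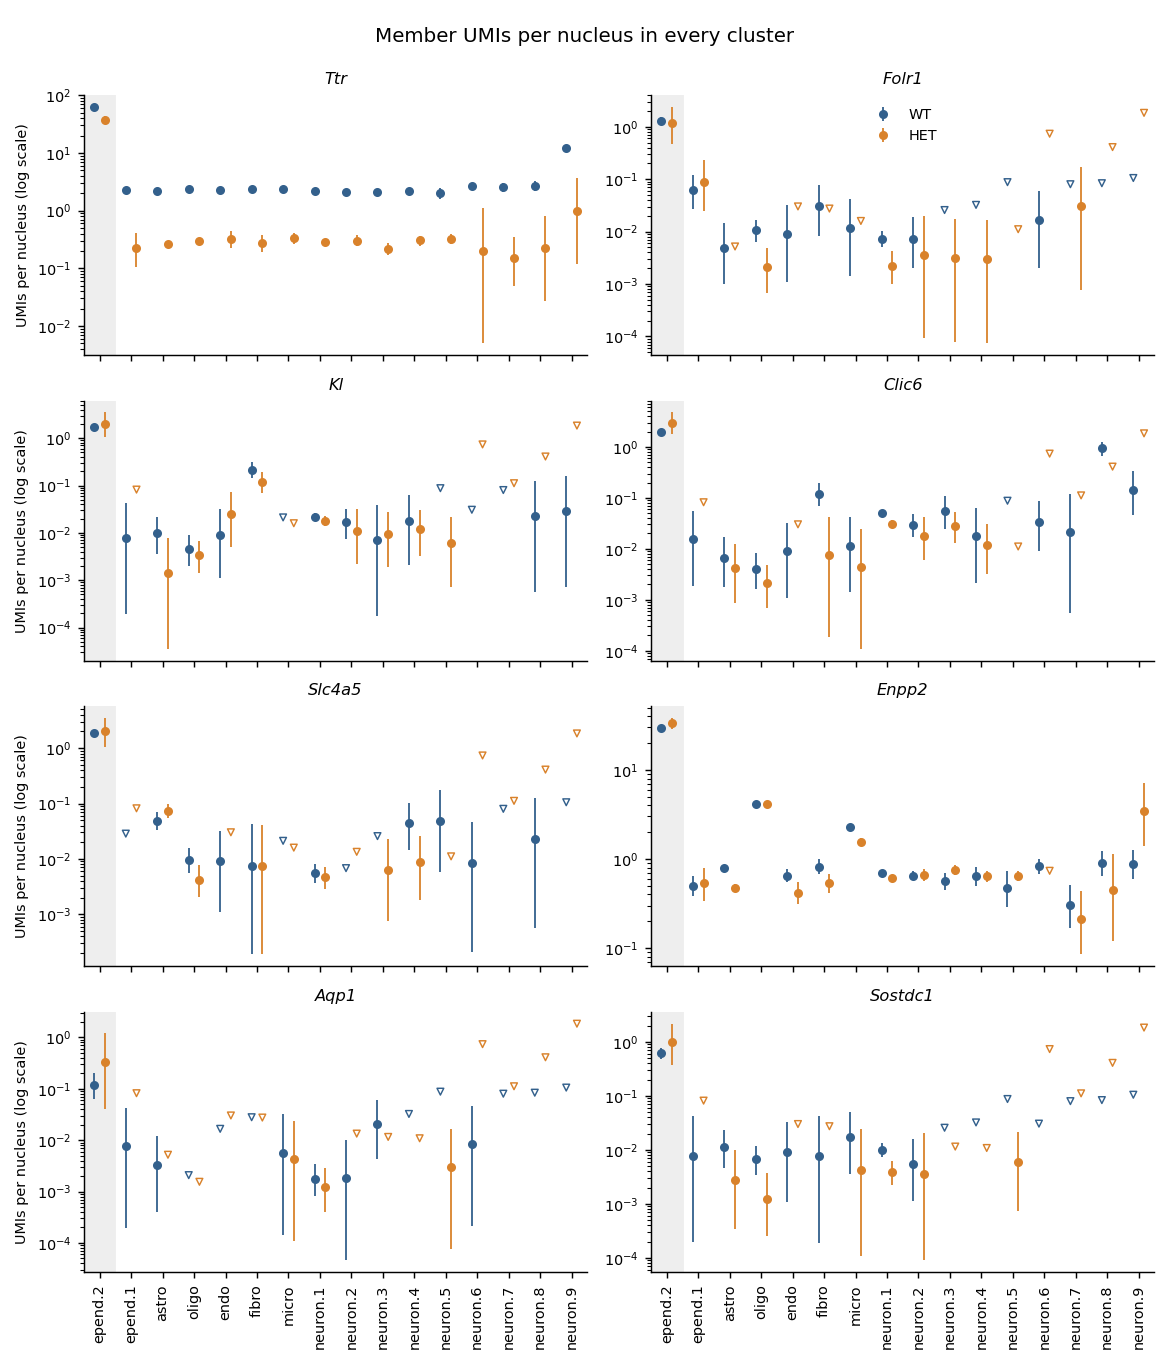
UMIs per nucleus (log scale) of each member in each of the 16 clusters, WT in blue and HET in orange, with exact 95% Poisson intervals as bars. Open triangles mark clusters with no UMI and stand at the upper end that a count of 0 allows, and grey shading marks epend.2. *Ttr* ran level across clusters outside epend.2 with at least 30 nuclei, near 2.26 in WT and 0.288 in HET, apart from WT neuron.9. HET neuron.9, with 2 nuclei, stood at 1. *Enpp2* stood out in oligo and micro, *Kl* in fibro, *Slc4a5* in astro and *Clic6* in WT neuron.8.

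The members were found together in epend.2 and hardly ever elsewhere. Leaving out *Ttr* and *Enpp2*, at least 3 of the other 6 members had a UMI in 87 of 108 WT epend.2 nuclei (80.6%) and in 5 of 6 HET nuclei. Outside epend.2 this held for 1 of 9151 WT nuclei and for 0 of 9016 HET nuclei. The WT exception was an oligodendrocyte nucleus with 17400 UMIs, of which 93 were *Ttr*. Outside epend.2, 93.8% of WT nuclei and 96.4% of HET nuclei held none of the 6.

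**Figure D2:**
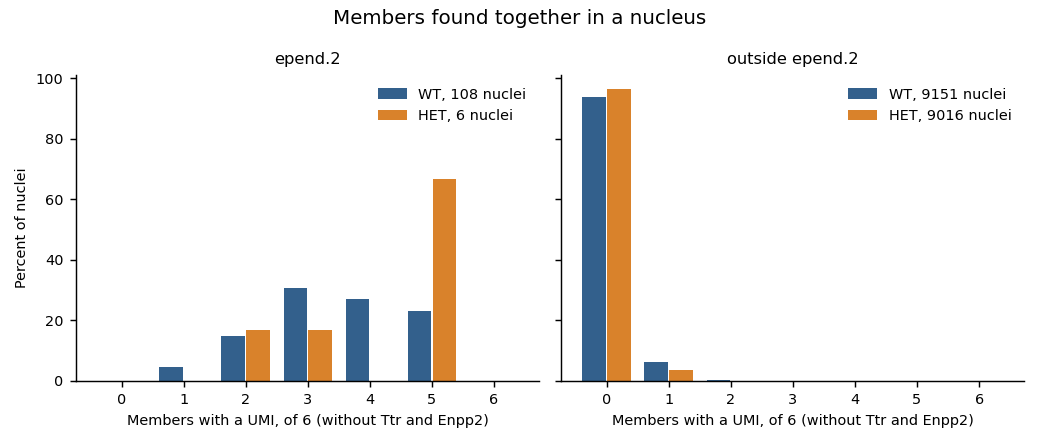
Percent of nuclei (vertical axis) by how many of the 6 sparser members had a UMI in the nucleus (horizontal axis), in epend.2 on the left and in all other nuclei on the right, WT in blue and HET in orange. Of the WT epend.2 nuclei 80.6% had at least 3, against 1 of 9151 WT nuclei elsewhere.

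Most *Ttr* UMIs nevertheless lay outside the choroid plexus cluster. Of 27611 WT *Ttr* UMIs, 6648 were in epend.2 (24.1%, 23.6 to 24.6%), and of 2805 HET UMIs 227 were (8.09%, 7.11 to 9.16%). The WT share in epend.2 was 69.8% for *Slc4a5*, 63.7% for *Folr1*, 52.1% for *Kl*, 45.6% for *Sostdc1*, 41.9% for *Aqp1*, 36.6% for *Clic6* and 20.1% for *Enpp2*. In HET, with its 6 nuclei, the highest share was 24.1% for *Folr1*, from 7 of 29 UMIs, and the lowest 1.39% for *Enpp2*. Over the 8 members together, 23.6% of WT UMIs and 2.75% of HET UMIs were in epend.2.

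**Figure D3:**
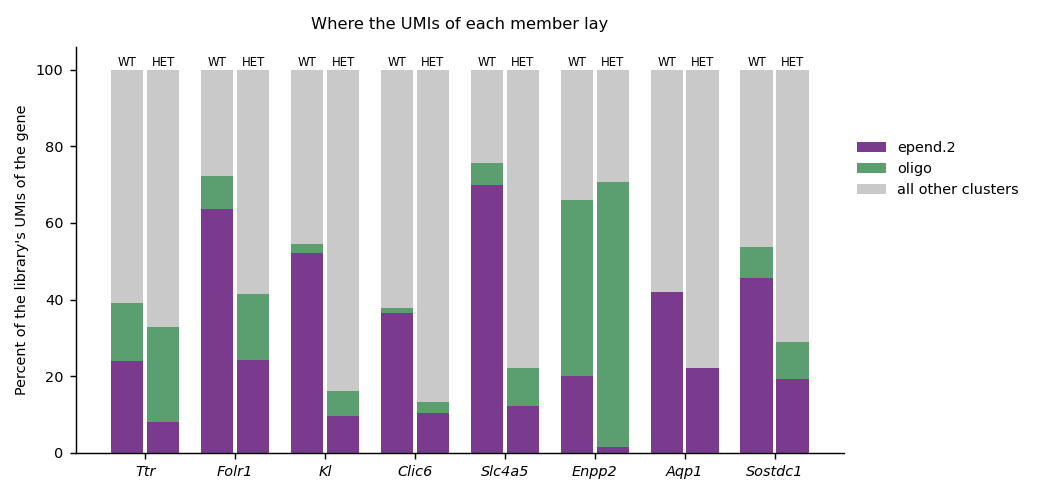
Percent of each member's UMIs in a library (vertical axis) that lay in epend.2 (purple), in oligo (green) and in all other clusters (grey), with a WT and a HET bar for each gene. In WT epend.2 held from 20.1% (*Enpp2*) to 69.8% (*Slc4a5*), and in both libraries oligo held a larger part of *Enpp2* than epend.2 did.

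Outside epend.2 *Ttr* was present at a similar number of UMIs per nucleus in most clusters, with WT neuron.9 apart. In 14 of the 15 WT clusters with at least 30 nuclei it lay between 2.02 (neuron.5) and 2.68 (neuron.8) UMIs per nucleus, a 1.33-fold spread. In CPM the same 14 clusters spread 8.19-fold, from 90.7 in neuron.8, whose median nucleus had 27562 UMIs, to 743 in endo, whose median nucleus had 2301. The epend.1 nuclei, next to the choroid plexus in the ventricle wall, held 2.26 UMIs per nucleus (2.01 to 2.54), close to the 2.22 of neuron.1 (2.18 to 2.26). *Ttr* was seen in 86.3% of all WT nuclei outside epend.2, with a median of 2 UMIs and a 99th percentile of 8. This flat level was read as background from free RNA.

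Within neuron.1 the *Ttr* count depended little on depth. WT neuron.1 nuclei were split by depth into 4 groups of 1258. From the shallowest to the deepest group the median depth went from 3830 to 15946 UMIs, and *Ttr* went from 1.90 (1.82 to 1.98) to 2.47 (2.38 to 2.56) UMIs per nucleus. In CPM *Ttr* was 508 in the shallowest and 132 in the deepest group. *Enpp2* scaled with depth far more closely in those nuclei, from 0.379 (0.346 to 0.415) to 1.17 (1.11 to 1.23) UMIs per nucleus.

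HET nuclei held the same flat pattern at a lower level. Across the 12 HET clusters with at least 30 nuclei, *Ttr* lay between 0.152 UMIs per nucleus (neuron.7, 5 UMIs in 33 nuclei) and 0.333 (micro), with a median of 0.288. It was seen in 23.3% of HET nuclei outside epend.2. The mean outside epend.2 was 2.29 UMIs per nucleus in WT and 0.286 in HET. Hemoglobin, which comes from blood and not from brain nuclei, was also lower in HET, with a UMI in 61.8% of WT and 15.3% of HET nuclei. The median ribosomal protein share was 0.696% in WT and 0.407% in HET, while the mitochondrial share was 0.343% and 0.458%. The part of these measures in the *Ttr* difference was not tested.

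**Figure D4:**
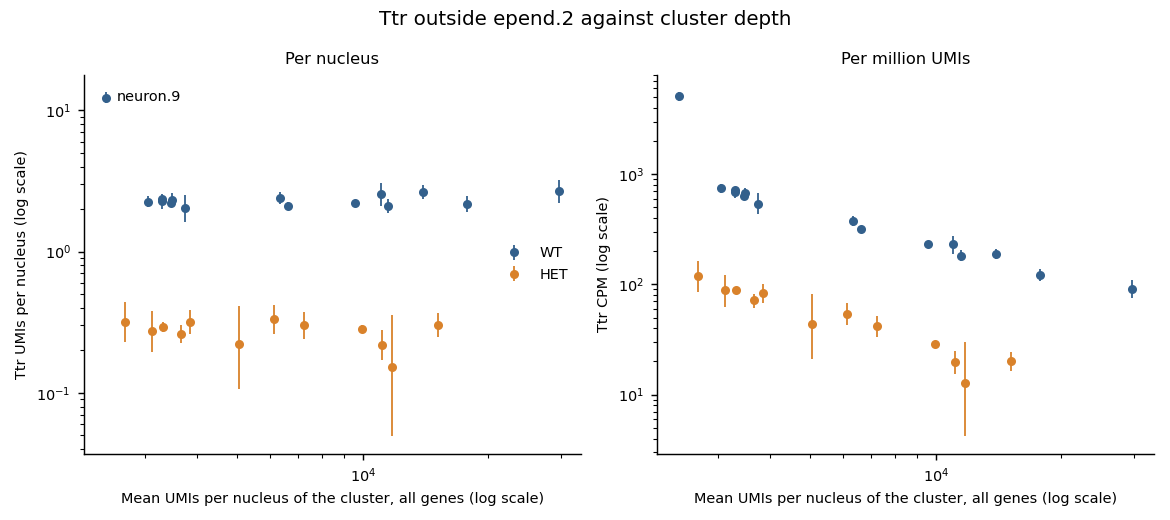
*Ttr* in each cluster other than epend.2 with at least 30 nuclei, as UMIs per nucleus (left) and as CPM (right), against the mean number of UMIs per nucleus of the cluster (both axes on log scales), WT in blue and HET in orange, with exact 95% Poisson intervals. Per nucleus the level did not follow depth, with 14 of 15 WT clusters between 2.02 and 2.68 and neuron.9 apart at 12.3, while CPM was lower in deeper clusters.

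The WT cluster neuron.9 was the exception, with 12.3 *Ttr* UMIs per nucleus (11.2 to 13.5) in 35 nuclei. A single nucleus labelled epithelial cells held 183 of its 431 *Ttr* UMIs, and also 3 *Clic6* and 10 *Enpp2* UMIs. Without that nucleus, a choice made after seeing the data, the level was 7.29 (6.41 to 8.26), still above every other WT cluster outside epend.2. These nuclei also stood apart in other ways: a median of 6.64% mitochondrial and 11.1% ribosomal protein UMIs and 0.412% hemoglobin UMIs, against at most 2.68%, 2.17% and 0.0535% in the other WT clusters. The part of these measures was not tested. Beyond that nucleus, 5 WT nuclei and 1 HET nucleus outside epend.2 held more than 20 *Ttr* UMIs.

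The other members did not share 1 fixed proportion to *Ttr* inside and outside epend.2. For every 1000 *Ttr* UMIs, WT epend.2 held 30.2 *Slc4a5* (26.1 to 34.8), 27.7 *Kl*, 21.4 *Folr1* and 10.1 *Sostdc1* UMIs. The other WT nuclei held 4.15 *Slc4a5* (3.32 to 5.12), 8.06 *Kl*, 3.86 *Folr1* (3.07 to 4.80) and 3.82 *Sostdc1* UMIs. If the outside nuclei had held the WT epend.2 proportions, their 20963 *Ttr* UMIs would have come with 448 *Folr1* UMIs, where 81 were counted, and with 211 *Sostdc1* UMIs, where 80 were counted. None of the 7 other members was over 3 times the count so derived in WT. *Enpp2*, at 1.26 times, was the only member above it. This rule cannot show that a member lacked a further source, as free RNA need not hold the proportions of epend.2 nuclei. *Slc4a5* in WT astro, where it was above the median cluster per nucleus, was at 0.739 times its count (0.498 to 1.05). HET nuclei outside epend.2 were set against the same WT epend.2 proportions, with 2578 *Ttr* UMIs in place of 20963. There *Enpp2* was at 11.3 times the count (11.1 to 11.5), *Clic6* at 1.91 times (1.62 to 2.24) and *Kl* at 1.58 times (1.31 to 1.90). Against the 6 HET epend.2 nuclei the direction turned for *Clic6* and *Kl*. For every 1000 *Ttr* UMIs *Clic6* stood at 79.3 in HET epend.2 (46.2 to 128) and 60.1 outside (50.8 to 70.7), and *Kl* at 52.9 (26.9 to 94.2) and 43.8 (36.0 to 52.9), so the intervals overlapped. *Enpp2* stood at 877 in HET epend.2 (721 to 1065) and 5473 outside (5248 to 5710).

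*Folr1* and *Sostdc1* were set against *Ttr* in 4 clusters of unlike cell types. In WT *Folr1* stood at 3.31 UMIs per 1000 *Ttr* UMIs in neuron.1 (2.33 to 4.56), 4.56 in oligo (2.74 to 7.13), 2.23 in astro and 3.50 in neuron.2. *Sostdc1* stood at 4.56, 2.88, 5.21 and 2.62 in the same clusters, and the 4 intervals of each gene overlapped. In astro and neuron.2 the values rested on 3 and 4 *Folr1* UMIs and on 7 and 3 *Sostdc1* UMIs. Intervals from so few UMIs are wide, so their overlap does not show that the proportions were alike. Over all HET nuclei outside epend.2 the proportions were higher, at 8.53 (5.34 to 12.9) for *Folr1* and 9.70 (6.26 to 14.3) for *Sostdc1*. *Folr1* was seen in 0.852% of WT nuclei outside epend.2 and *Sostdc1* in 0.841%, and in HET in 0.244% and 0.255%. *Aqp1* had 18 UMIs in 18 of the 9151 WT nuclei and 7 in 7 of the 9016 HET nuclei. At this depth these 3 members could not be told from background outside epend.2. *Folr1* in epend.1 and *Sostdc1* in HET neuron.1 had intervals above 3 times the median cluster. The latter had 16 UMIs in 15 of 4079 nuclei, 0.00392 per nucleus (0.00224 to 0.00637), where the median HET cluster was at 0.00063. That median was near 0 because several HET clusters, among them endo and epend.1, had no *Sostdc1* UMI. In WT neuron.1 the level was higher, at 0.0101, and the median cluster was at 0.00554. Per 1000 *Ttr* UMIs *Sostdc1* stood at 13.8 (7.86 to 22.5) in HET neuron.1 and 4.30 (0.885 to 12.6) in HET oligo, so the intervals overlapped.

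*Folr1* was higher in the ependymal cluster epend.1 than in the median cluster of both libraries. It had 8 UMIs in 8 of 129 WT nuclei, 0.0620 per nucleus (0.0268 to 0.122), and 4 in 4 of 45 HET nuclei, 0.0889 (0.0242 to 0.228). The median cluster was at 0.00735 in WT and 0.00215 in HET, below both lower ends. Set against the WT epend.2 proportion to *Ttr*, the WT epend.1 count was at 1.28 times (0.554 to 2.53), an interval that took in 1. In WT these 8 nuclei held 47 *Ttr* UMIs, 34 of them in a single nucleus labelled epithelial cells, which had 1 of the 8 *Folr1* UMIs. No *Slc4a5* UMI was found in epend.1 of either library.

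*Enpp2* was a gene of oligodendrocytes as well as of the choroid plexus. In oligo it was found in 93.8% of 1767 WT nuclei and 94.5% of 2382 HET nuclei, at 4.16 UMIs per nucleus in each library. In CPM the level was 1257 (1228 to 1286) in WT and 1256 (1232 to 1281) in HET, a log2 ratio of 0.00 (−0.04 to 0.04). Oligo held 7343 of the 12770 WT *Enpp2* UMIs outside epend.2 and 9909 of the 14110 HET UMIs. The cluster named micro came next, with 2.26 UMIs per nucleus in WT (2.04 to 2.49) and 1.57 in HET (1.41 to 1.74). Its markers were mixed: the 6 microglial genes summed to 690 CPM in WT micro and 730 CPM in HET micro, the 6 neuronal genes to 9005 and 9947 CPM, and the 6 oligodendrocyte genes to 3897 and 2959 CPM. In oligo the oligodendrocyte genes summed to 14844 and 16810 CPM. The part of oligodendrocyte RNA in the *Enpp2* level of micro was not tested. In neuron.1 the level was 0.701 UMIs per nucleus in WT and 0.610 in HET. Where *Ttr* differed 7.81-fold per nucleus between the libraries in neuron.1, *Enpp2* differed 1.15-fold.

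*Slc4a5* was higher in the astrocytes of both libraries than in the median cluster. It had 30 UMIs in 28 of 609 WT astro nuclei (4.60%), 0.0493 per nucleus (0.0332 to 0.0703), and 52 UMIs in 39 of 709 HET nuclei (5.50%), 0.0733 per nucleus (0.0548 to 0.0962). The median cluster was at 0.00758 in WT and 0.00210 in HET. The reference label was astrocytes for 27 of the 28 WT nuclei and 38 of the 39 HET nuclei with a UMI. These WT nuclei held 2.11 *Ttr* UMIs each and the HET nuclei 0.282, within the flat level of each library.

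*Kl* was higher in the fibro cluster of both libraries than in the median cluster. It had 28 UMIs in 17 of 132 WT nuclei (12.9%) and 16 UMIs in 14 of 134 HET nuclei (10.4%), or 0.212 (0.141 to 0.307) and 0.119 (0.0682 to 0.194) per nucleus. The median cluster was at 0.00901 and 0.00771. The cluster is named for fibroblasts, and the 7 fibroblast and mural genes were at 1604 CPM in WT fibro and 1485 CPM in HET fibro, but the reference label was fibroblasts for 17 of the 132 WT and 23 of the 134 HET nuclei. Of the WT nuclei with *Kl*, 10 were labelled astrocytes, 3 fibroblasts, 3 neurons and 1 oligodendrocytes. Of the HET nuclei with *Kl*, 8 were labelled astrocytes, 5 neurons and 1 oligodendrocytes. None of these nuclei held a UMI of *Folr1*, *Clic6*, *Slc4a5*, *Aqp1* or *Sostdc1*. Per 1000 *Ttr* UMIs, *Kl* stood at 9.84 (8.08 to 11.9) in WT neuron.1 and 1.92 (0.829 to 3.79) in WT oligo. The WT neuron.1 nuclei were deeper, with a mean of 9597 UMIs against 3307 in WT oligo. In neuron.1 *Kl* was at 2.28 CPM in WT (1.87 to 2.75) and 1.80 CPM in HET (1.41 to 2.26). In oligo it was at 1.37 CPM in WT and 1.01 CPM in HET, from 8 UMIs in each library.

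*Clic6* outside epend.2 lay in part in a few nuclei with many UMIs of it, most of these in neuron clusters. Of 362 WT UMIs, 150 (41.4%) lay in 8 nuclei with at least 5 UMIs each, 5 of them in neuron.1, 2 in neuron.8 and 1 in fibro. Of 155 HET UMIs, 45 (29.0%) lay in 4 such nuclei, 3 in neuron.1 and 1 in neuron.3. The rest was spread over other nuclei, out of 187 WT and 99 HET nuclei with a *Clic6* UMI. The nuclei with at least 5 were deep, with a median of 13692.5 UMIs in WT and 17780 in HET. The highest nucleus held 31 *Clic6* UMIs in WT and 25 in HET, more than the highest epend.2 nucleus, which held 8. In WT neuron.8 all 41 *Clic6* UMIs came from 2 of 44 nuclei, with 27 and 14, and none was seen in the 9 HET nuclei. None of the other 5 sparser members was found in these 2 nuclei. In HET *Clic6* was at 0.0311 UMIs per nucleus in neuron.1 and 0.0282 in neuron.3, above the 0.00428 of the median cluster.

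Compared as whole libraries, 7 of the 8 members were at least 2-fold lower in HET, where 4.94% of 21997 genes with at least 20 UMIs were. *Ttr* stood at 393 CPM in WT and 42.4 in HET, a log2 ratio of −3.21 (−3.27 to −3.16). *Folr1* had 223 and 29 UMIs, with a log2 ratio of −2.86 (−3.47 to −2.29). *Sostdc1* had 147 and 31 UMIs, with a log2 ratio of −2.16 (−2.77 to −1.59). *Aqp1* (31 and 9 UMIs), *Clic6*, *Slc4a5* and *Kl* lay between −1.70 and −1.41. *Enpp2* was near equal, at 227 and 216 CPM (−0.07, −0.11 to −0.04). Without the nuclei with the 5% highest doublet scores *Slc4a5* was at −0.998, short of 2-fold, which left 6 of the 8. The median over the 8 was −1.67, and that over all 21997 genes −0.09. When every cluster present in both libraries was given the same weight, the median over the members was 0.014, and *Clic6*, *Enpp2*, *Aqp1* and *Sostdc1* had positive ratios.

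Outside epend.2, 5 of the 8 members were at least 2-fold lower in HET, and 4.52% of 21960 genes were. These 5 were *Ttr* (−2.94, −3.00 to −2.88), *Folr1* (−1.80, −2.55 to −1.11), *Sostdc1* (−1.60, −2.31 to −0.93), *Aqp1* (−1.28, −2.79 to 0.04) and *Clic6* (−1.14, −1.43 to −0.87). The interval of *Aqp1* took in 0. The other 3 members lay nearer to 0, with *Kl* at −0.50 (−0.86 to −0.15), *Slc4a5* at 0.08 (−0.37 to 0.53), with 87 UMIs in each library, and *Enpp2* at 0.22 (0.19 to 0.26). HET oligo had 2382 nuclei and WT oligo 1767, and without epend.2 and oligo the *Enpp2* ratio was −0.23 (−0.29 to −0.17). The median over the 8 members was −1.21, and over all genes −0.08. With equal weight for every cluster present in both libraries *Folr1* was at −0.86, which ended its 2-fold call, *Clic6* at −3.51 and *Slc4a5* at −0.64. These weights count HET neuron.9, neuron.6 and neuron.8, with 2, 5 and 9 nuclei, as much as any other cluster.

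Within epend.2 the libraries lay closer together. The median log2 ratio over the 7 members with at least 20 UMIs was 0.03, against 0.23 over 4642 genes. *Ttr* was lower in HET, at −0.83 (−1.03 to −0.64), and its interval did not take in 0. That interval treats UMIs of 6 nuclei as independent, and the values of those nuclei lay within the WT range. *Enpp2* stood at 0.03 (−0.19 to 0.23). The intervals of *Folr1* (−0.30), *Slc4a5* (−0.03), *Kl* (0.10), *Clic6* (0.50), *Sostdc1* (0.56) and *Aqp1* (1.34, from 13 and 2 UMIs) all took in 0. The narrowest of them, that of *Clic6*, ran from −0.28 to 1.20.

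**Figure D5:**
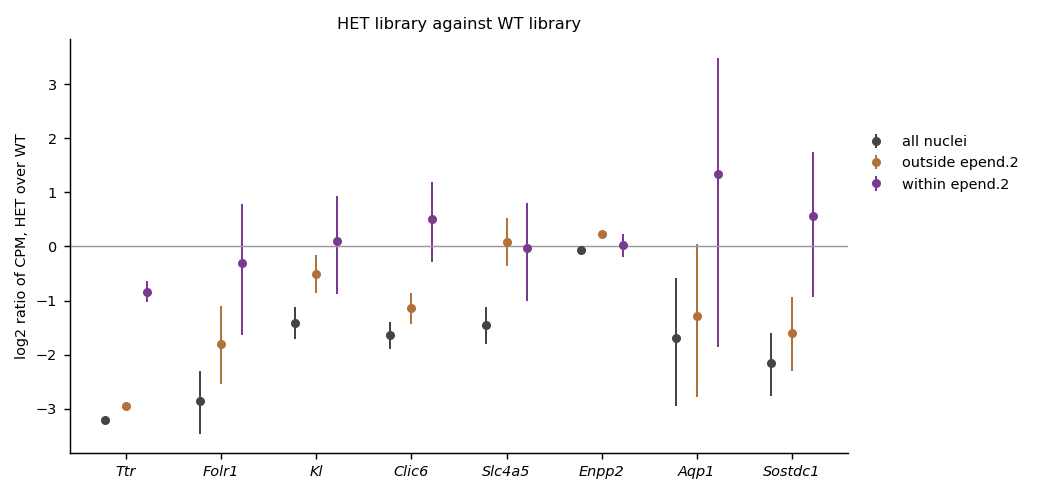
Log2 ratio of CPM, HET over WT, for each member over all nuclei (grey), outside epend.2 (brown) and within epend.2 (purple), with exact 95% intervals for counting error. *Ttr* was at −3.21, −2.94 and −0.83, while *Enpp2* was at −0.07, 0.22 and 0.03.

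The doublet scores that came with the nuclei were high in epend.2. Of the WT nuclei 37 of 108 (34.3%), and of the HET nuclei 5 of 6, lay in the 5% of their library with the highest score, although the authors had classed every deposited nucleus a singlet. In WT the 37 had a median of 5193 UMIs and 69.6 *Ttr* UMIs per nucleus, and the other 71 had 2686 and 57.4. The 6 sparser members summed to 2155 CPM in the 37 and 1969 CPM in the 71. The neuronal genes were at 2171 and 1819 CPM, and the astrocyte genes at 47.3 and 267 CPM. The part of doublets in these values was not tested.

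The wider list of choroid plexus genes gave the background to the members. Of its 66 genes found in the table, 65 had at least 20 WT UMIs, 42 of these were at least 10 times higher in WT epend.2 than elsewhere and 4 were lower there. Over all genes with at least 20 WT UMIs, 3.44% were at least 10 times higher there. The list's median ratio was 16.7. The highest in WT epend.2 were *Trpm3* at 22334 CPM, *Htr2c* at 10279, *Slc4a10* at 2482, *Ptgds* at 1730 and *Col9a3* at 1302. *Htr2c* encodes a serotonin receptor, *Slc4a10* a sodium bicarbonate transporter and *Ptgds* a prostaglandin synthase secreted into cerebrospinal fluid. Of these, *Trpm3*, *Htr2c*, *Slc4a10* and *Ptgds* had at most 13.7% of their WT UMIs in epend.2, while *Col9a3* had 48.6%. The smallest shares were those of *Trf* (0.602%), *Car4* (0.395%), *Cp* (0.293%), *Tjp1* (0.128%) and *Cox8b*, which had no UMI in epend.2 of either library and 28 elsewhere in WT. Over all nuclei 18 of 65 list genes were at least 2-fold lower in HET and 0 at least 2-fold higher, where 4.94% of all genes were lower, and the list's median log2 ratio was −0.41. Outside epend.2, 7 of 64 list genes were at least 2-fold lower and 2 at least 2-fold higher, where 4.52% of all genes were lower, and the list's median was −0.17. The share of all genes at least 2-fold higher was not counted.

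Some transcription factors of the choroid plexus had a large part of their WT UMIs in epend.2. *Otx2*, which specifies the choroid plexus, had 130 of its 152 WT UMIs in epend.2 (85.5%), at 328 CPM in WT and 332 CPM in HET. *Lmx1a*, a roof plate factor, had 45.7% of its WT UMIs there, at 401 CPM, and *Msx1* 49.3%, at 177 CPM. *Foxj1*, the factor of motile cilia, had 6.40% and was at 55.5 CPM. In HET, with its 6 nuclei, epend.2 held 8 of the 50 *Otx2* UMIs (16%), 1.66% of *Lmx1a*, 3.70% of *Msx1* and 0.893% of *Foxj1*. *Lmx1a* had 474 UMIs outside epend.2 in HET and 189 in WT.

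Across the 16 WT clusters, the genes whose pattern was most like the mean of the 8 members, by Pearson's r of log2(CPM + 1) among 14544 genes with at least 200 WT UMIs, were *Aph1c* (r = 0.92), *Acad8*, *Cul4b*, *Arhgef18*, *Ppat*, *Zfp579*, *Oxnad1*, *Mdfic*, *Cab39l* and *Prdm16* (r = 0.85). The clusters share 1 library and its depth, and these values are a description. Of the 10 genes, *Mdfic* (46.0%) and *Prdm16* (35.9%) had over 10% of their WT UMIs in epend.2.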

How the data were processed

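Brainstem nuclei of 1 WT and 1 HET mouse were measured with 10x Chromium 3′ v3.1 libraries. The authors deposited raw UMI counts per gene and nucleus, made with Cell Ranger on its default mm10 reference with recommended parameters; the Cell Ranger version and the treatment of intronic reads are not given in the sources used here. They kept nuclei with at least 1000 genes and at most 15% mitochondrial UMIs in Seurat, and removed mitochondrial, hemoglobin and a few further genes. The deposited percent values (mitochondrial, ribosomal protein, hemoglobin), doublet score, cluster names and reference labels were taken as they were. The caller behind the doublet score is not given in the sources used here, and every nucleus carried the class singlet.

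UMIs were summed by library and cluster and given as UMIs per nucleus and as CPM of all UMIs in the table, with exact 95% Poisson intervals, Clopper-Pearson intervals for shares and exact conditional binomial intervals for ratios. PCR copies were collapsed by UMIs. Genes entered a ratio with at least 20 UMIs, and clusters entered a range with at least 30 nuclei. Over other genes, a library at 0 was set to a floor of 3 counts. Thinned shares are expected shares at 1000 UMIs per nucleus. With 1 library per genotype no test was made. The members, the lists and the genes named were chosen with earlier results of these data known: all members, the 5 highest and 5 lowest-share genes of the choroid plexus list, 4 transcription factors and the 10 genes most like the members. *Folr1* in epend.1, *Kl* in fibro, *Slc4a5* in astro, *Sostdc1* in HET neuron.1 and *Clic6* and *Enpp2* elsewhere were named because their interval lay above 3 times the median cluster, a rule chosen after seeing the data. Alternatives changed the nuclei kept, the totals, the scaling, the weights and the reference gene. The interval functions were tested on simulated counts. Computations used scipy 1.17.1 for the intervals, pandas 2.3.3 and numpy 2.4.6 for sums, and matplotlib 3.10.9 for figures, under Python 3.11.15.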

Additional observations from a re-analysis of the deposited data

How the results depend on the processing

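The direction of the comparison over all nuclei, epend.2 included, rested on how clusters were weighted. With equal weight for every cluster in both libraries, the median log2 ratio over all nuclei was 0.014, against −1.67, and *Clic6* (0.15), *Enpp2* (0.031), *Aqp1* (1.08) and *Sostdc1* (0.44) had positive ratios. In that setting epend.2, 108 and 6 nuclei, counts as much as any other cluster. Outside epend.2 the same weights left 7 of the 8 members lower in HET, with *Ttr* at −3.49, *Clic6* at −3.51, *Folr1* at −0.86 and *Slc4a5* at −0.64. HET neuron.9, neuron.6 and neuron.8, with 2, 5 and 9 nuclei, counted in full there. In WT neuron.9 *Ttr* was at 5084 CPM, and *Clic6* at 59.0 CPM from 5 UMIs. *Enpp2* over all nuclei was also above 0 without the 5% highest doublet scores (0.024) and relative to the median of genes with at least 200 UMIs (0.031), a median that itself lay at −0.10. Without the 5% highest doublet scores, which left 71 WT and 1 HET nuclei in epend.2, *Slc4a5* over all nuclei was at −0.998 in place of −1.45, the share of member UMIs in epend.2 was 16.0% in WT and 0.280% in HET and the median log2 ratio within epend.2 was −0.20. The share was 22.9% and 1.73% without *Ttr*, and 25.5% and 8.68% without *Enpp2*. The count of members over 3 times the WT epend.2 proportion to *Ttr* in WT nuclei outside epend.2 was 0, and became 2 with *Folr1* as the reference (*Ttr* and *Enpp2*), 1 with a threshold of 1 time (*Enpp2*), and 5 when, as an alternative added after seeing the data, clusters were set against the median cluster in UMIs per nucleus. By thinned shares 6 members in place of 8 were at least 10 times higher in epend.2. Of 96 values of single members under the alternatives, 74 stayed within the main interval. The added alternatives in UMIs per nucleus gave medians of −1.72 over all nuclei and −1.27 outside epend.2, and without epend.1, neuron.9, fibro and neuron.8 the latter was −1.06. No paired analysis was possible because each genotype has 1 library. The 6 HET nuclei of epend.2 and the few UMIs of *Aqp1* limit every value that rests on them.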
